A study of Mus musculus with 12 samples.

Results

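The blood-brain barrier transporters described here are 10 genes, chosen by their symbols from the 21956 genes of the count table: Slc2a1, Mfsd2a, Abcb1a, Abcg2, Slco1c1, Slco1a4, Slc7a5, Slc16a1, Slc38a5 and Slc22a8. All 10 were found, each in 1 row. They were measured by RNA sequencing of brain tissue from 12 mice, 3 in each of 4 groups. Sham-Fabp4fl/fl and ICH-Fabp4fl/fl mice carried floxed Fabp4. In Sham-Fabp4CKO and ICH-Fabp4CKO mice the floxed gene was combined with an inducible Cre recombinase under the microglial gene Tmem119, and tamoxifen was given to delete Fabp4, a lipid chaperone, in microglia. The ICH groups received collagenase into the right striatum, which causes intracerebral hemorrhage (ICH), and their tissue was taken 48 h later within a radius of 1 to 2 mm of the hematoma in slices of 1 mm. Sham mice had the same operation without collagenase, and their tissue was taken in the same way, although they had no hematoma. The age of these mice is not given in the sources used here. Each library held RNA from every cell type in the slice, although the deletion was aimed at microglia alone.

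The endothelial cells of brain capillaries are sealed by tight junctions, so that polar nutrients, hormones and drugs enter or leave the brain largely through membrane transporters. Carriers of the solute carrier families bring in glucose, lactate, amino acids, lipids and thyroid hormone, whereas ATP-driven pumps return drugs and toxins to the blood. Loss of barrier function and swelling of the tissue around the clot are known features of ICH. In the gene annotation deposited with the counts, 6 of the 10 transporters carried the term apical plasma membrane, as did 2.08% of all genes, and 3 carried a term that names the blood-brain barrier, as did 0.237% of all genes.

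Stretches upstream of the transcription start are shown for 4 transporters whose values the results below turn on. Slc38a5 had the largest rise after ICH in Fabp4fl/fl mice, Slc2a1 was the most abundant member, Abcb1a encodes the main drug pump, and Slc22a8 was the member that was not called. Each is the 250 bases before the RefSeq start on build GRCm38.p6, on the plus strand, 5′ to 3′. Capitals mark ACGTG and GCGTG, the core letters of a hypoxia response element, on either strand.
Slc2a1 (chr4:119108495-119108744): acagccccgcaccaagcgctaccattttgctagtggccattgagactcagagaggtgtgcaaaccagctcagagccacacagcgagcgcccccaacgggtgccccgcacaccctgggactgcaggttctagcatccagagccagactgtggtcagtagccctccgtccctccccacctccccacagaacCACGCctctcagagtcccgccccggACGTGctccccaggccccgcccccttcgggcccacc
Slc38a5 (chrX:8271131-8271380): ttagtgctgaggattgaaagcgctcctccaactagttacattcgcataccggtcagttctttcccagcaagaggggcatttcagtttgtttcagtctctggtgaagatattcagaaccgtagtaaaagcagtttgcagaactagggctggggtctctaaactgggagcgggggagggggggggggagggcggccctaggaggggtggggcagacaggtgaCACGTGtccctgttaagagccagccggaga
Abcb1a (chr5:8566841-8567090): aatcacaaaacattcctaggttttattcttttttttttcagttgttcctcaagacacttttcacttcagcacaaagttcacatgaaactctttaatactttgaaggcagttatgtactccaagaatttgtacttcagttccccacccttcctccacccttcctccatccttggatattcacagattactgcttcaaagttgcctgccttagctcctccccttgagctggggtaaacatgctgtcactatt
Slc22a8 (chr19:8592932-8593181): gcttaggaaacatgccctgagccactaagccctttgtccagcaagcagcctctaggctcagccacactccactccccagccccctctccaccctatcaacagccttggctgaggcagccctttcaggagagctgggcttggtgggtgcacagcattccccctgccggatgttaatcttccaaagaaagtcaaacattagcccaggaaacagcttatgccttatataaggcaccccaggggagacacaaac
Of the 9 members with a RefSeq window, 4 held ACGTG (Slc2a1, Mfsd2a, Slc16a1 and Slc38a5), as did 16.6% of all 32851 windows, and 3 held GCGTG (Slc2a1, Mfsd2a and Slc16a1), as did 28.2%. In Slc38a5 the 2 matches of ACGTG overlap, since CACGTG reads the same on both strands. The letters CTTTGA, the core of a TCF/LEF motif of the Wnt pathway, were in the windows of Mfsd2a and Abcb1a and in 13.8% of all windows. TGACTCA, a core shared by AP-1 and BACH/MAF factors, was in 0 of the 9 members' windows and in 4.46% of all. The windows also differed in composition. That of Slc16a1 was 76.4% G and C with 37 CpG dinucleotides, and those of Abcb1a, Slco1c1 and Slco1a4 were 39.2% to 42.8% with 0 CpG, beside medians of 52.4% and 6 over all windows.

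The libraries held 15650830 to 22406222 counts. Fabp4 had 2, 1 and 2 counts in Sham-Fabp4fl/fl, 0, 0 and 0 in Sham-Fabp4CKO, 46, 63 and 24 in ICH-Fabp4fl/fl and 5, 3 and 10 in ICH-Fabp4CKO, so that the ICH groups did not overlap. As a check of the tissue, every listed marker of neurons, astrocytes, oligodendrocytes, microglia, pericytes and endothelial cells had counts in every group. Some libraries stood apart. The summed level of 8 choroid plexus markers was 872 to 3236 CPM (counts scaled to library size by edgeR's TMM factors) in the Sham-Fabp4fl/fl libraries and 15.2 to 54.4 in the other 9. ICH-Fabp4fl/fl replicate 1 had 16.3% of its counts on mitochondrial genes, against 7.90% to 11.9% elsewhere. ICH-Fabp4CKO replicate 1 had 1 count on Y-linked genes, against 1302 to 2251 elsewhere. ICH-Fabp4CKO replicate 2 stood apart from replicates 1 and 3 of its group in its marker sums, with 4300 CPM of neuron markers against 2109 and 1467, 1264 of monocyte and macrophage markers against 6213 and 10780, and 163 of meningeal fibroblast markers against 921.5 and 1760. ICH-Fabp4fl/fl replicate 3 differed from replicates 1 and 2 in the same directions, with 4006 CPM of neuron markers against 1567 and 2329, and 1005 of monocyte and macrophage markers against 2707 and 1980. The part of these differences in the results below was not tested, and values without single libraries are given where a call rests on them.

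Slc2a1, the glucose carrier GLUT1, was the most abundant member per kilobase of exon in every group, with 39.95 ± 7.86 CPM per kilobase in Sham-Fabp4fl/fl (SD, n = 3). It was followed there by Slc7a5 (15.7 ± 3.10), Slco1c1 (14.6 ± 1.42), Slc16a1 (12.6 ± 2.85), Mfsd2a (9.60 ± 0.0737), Slco1a4 (8.12 ± 1.62), Abcb1a (5.83 ± 1.10), Slc22a8 (3.96 ± 0.591), Slc38a5 (2.60 ± 0.954) and Abcg2 (2.15 ± 0.489). In this order only Slc2a1 and Slc7a5, and Abcb1a and Slc22a8, were neighbours whose libraries did not overlap. After ICH in Fabp4fl/fl mice, Slc16a1 stood second with 46.2 ± 9.32 and Slc22a8 last with 3.11 ± 1.23 CPM per kilobase. Exon lengths are those of GENCODE M21, and the number of counts behind a single value ranged from 46 for Slc38a5 in Sham-Fabp4CKO to 10630 for Slc2a1 in ICH-Fabp4fl/fl.

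To see how ICH alone bore on the transporters, ICH-Fabp4fl/fl was compared with Sham-Fabp4fl/fl. Of the 10 members, 9 were called higher after ICH, with a threshold of 0.05 on the p-value of edgeR's quasi-likelihood test after Benjamini-Hochberg adjustment over 14719 genes. Of all genes tested 26.2% were called higher. However, under a scaling to the endothelial markers 7 of the 9 had a negative sign. That scaling moved the median of all genes to -1.76, and 9 of the 10 members lay above the median of all genes with either scaling. The 3 ICH libraries lay above all 3 sham libraries for the same 9 members, as for 34.4% of all genes tested. The median log2 fold change over the 10 was 1.22, beside 0.02 over all genes. With a fold of at least 2 required as well, 7 members were called higher, all but Slco1c1, Slco1a4 and Slc22a8, beside 17.2% of genes. In such bulk tissue, more cells of a type and more RNA per cell cannot be told apart.

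**Figure D1:**
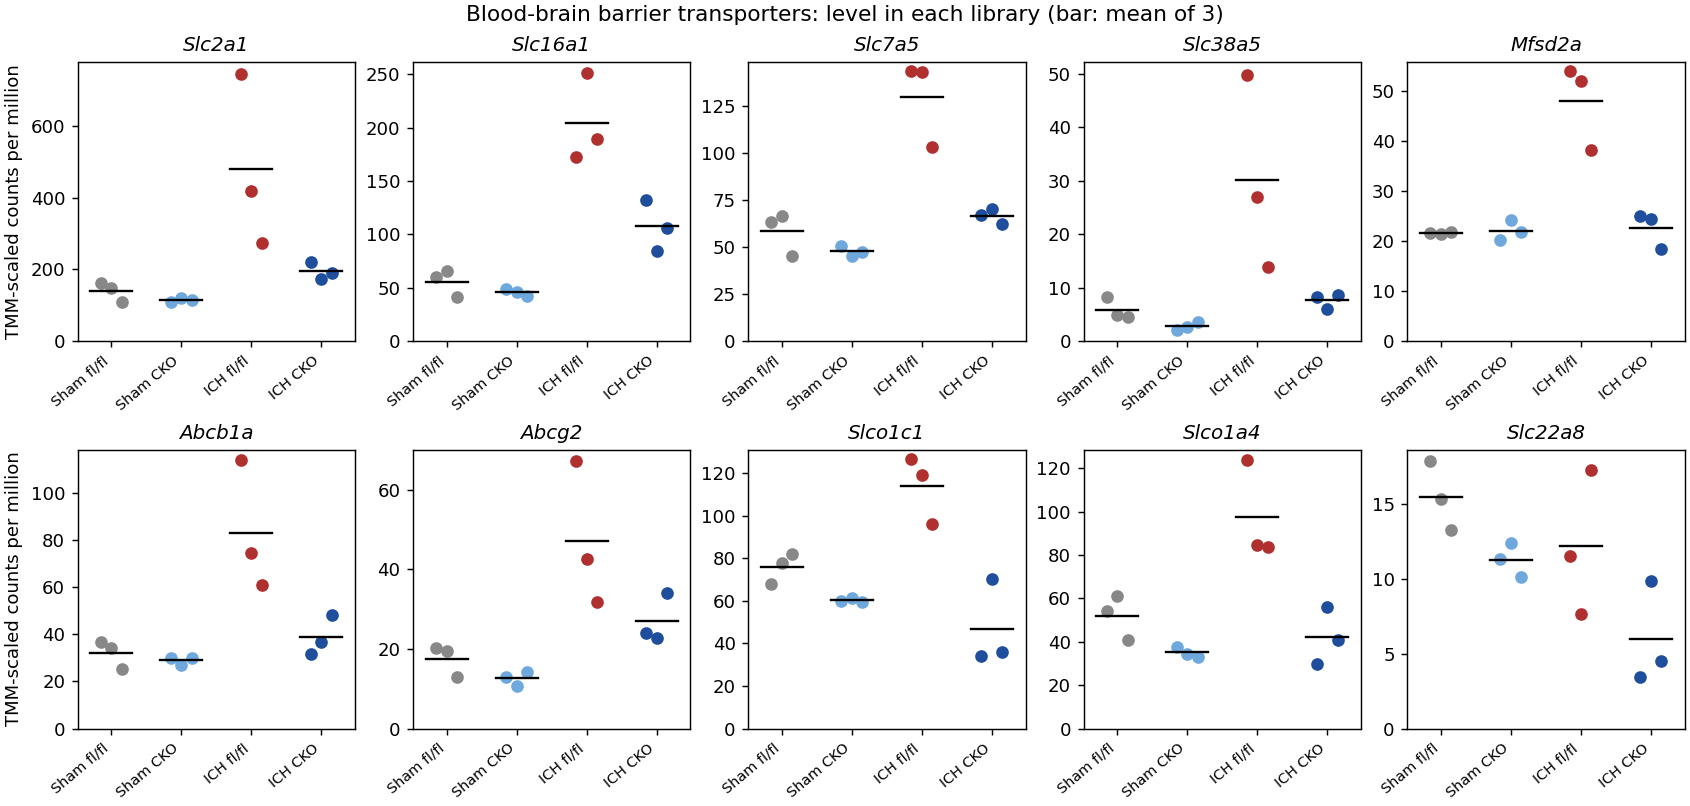
TMM-scaled CPM (vertical axis, from 0) of the 10 transporters in each of the 12 libraries, 1 point per mouse, by group, with a bar at the mean of 3. All members but Abcg2 and Slc22a8 had their 3 highest values in ICH-Fabp4fl/fl with this scaling. Of the 9 members called against sham, 7 took the opposite sign when libraries were scaled to the endothelial markers, which moved the median of all genes to -1.76.

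Among the energy carriers, Slc2a1 was at 162, 149 and 109 CPM in the Sham-Fabp4fl/fl libraries and at 748, 419 and 275 in the ICH-Fabp4fl/fl libraries. The highest value came from replicate 1, the library with the largest mitochondrial share, and the lowest ICH value was still above every sham value. The log2 fold change was 1.73 (standard error 0.36, adjusted p = 0.00799 by edgeR's quasi-likelihood test), and the adjusted p was 0.00962 without that library. Slc16a1, the monocarboxylate carrier MCT1 for lactate and ketone bodies, was at 60.3, 65.4 and 41.4 CPM in sham and at 173, 251 and 189 after ICH. Here replicate 2 was the highest. Slc16a1 rose by 1.84 on the log2 scale (standard error 0.23, adjusted p = 0.00117, edgeR), the smallest adjusted p of the members.

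Both amino acid carriers rose. Slc7a5, the LAT1 subunit that carries large neutral amino acids, was at 63.3, 66.3 and 45.1 CPM in sham and at 143, 143 and 103 after ICH, a log2 fold change of 1.11 (standard error 0.20). Slc38a5, the glutamine carrier SNAT5, had the largest fold change of the members, from 8.29, 4.82 and 4.39 CPM in sham to 49.8, 26.9 and 13.8 after ICH. Its ICH libraries differed more among themselves than those of any other member relative to their mean, and the log2 fold change was 2.31 (standard error 0.47, adjusted p = 0.00752, edgeR). Mfsd2a, the carrier of lysophospholipids with docosahexaenoic acid and a restraint on vesicle traffic through the endothelium, was even in sham at 21.6, 21.4 and 21.7 CPM. All 3 ICH libraries were higher, at 53.9, 51.9 and 38.1, which gave 1.11 on the log2 scale (standard error 0.15, adjusted p = 0.00160, edgeR).

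Both drug efflux pumps rose. Abcb1a, which encodes P-glycoprotein, went from 36.7, 34.0 and 25.2 CPM in sham to 114, 74.2 and 60.8 after ICH (log2 fold change 1.33, standard error 0.25). Abcg2, the breast cancer resistance protein, went from 20.2, 19.5 and 12.96 to 67.2, 42.5 and 31.8 (log2 fold change 1.38, standard error 0.29). For both pumps the order of the ICH libraries was that of Slc2a1, highest in replicate 1. Abcb1a has a close copy, Abcb1b, at 1.96 ± 0.613 CPM in sham (SD, n = 3) and 12.8 ± 4.69 after ICH, so that reads shared by these paralogs may have been divided between them.

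The organic anion carriers stood apart from the rest. Slco1c1, the thyroxine carrier OATP1C1, had the smallest called change, from 67.7, 78.0 and 82.0 CPM to 126, 119 and 96.0 (log2 fold change 0.54, standard error 0.15, adjusted p = 0.0241, edgeR). Slco1a4, the carrier OATP1A4 of bile acids, steroid conjugates and drugs, went from 54.3, 61.2 and 40.8 to 124, 84.7 and 83.6 (log2 fold change 0.86, standard error 0.21, adjusted p = 0.0156, edgeR). These calls were the least stable, since that of Slco1c1 was lost without ICH-Fabp4fl/fl replicate 1 or 2 or any 1 of the sham libraries (adjusted p = 0.0513 to 0.123, edgeR) or with all 12 libraries in 1 fit (0.0645, with 8 members and 29.0% of genes called higher), and that of Slco1a4 without sham replicate 1 (0.0512) or 3 (0.0532). Slc22a8, the organic anion carrier OAT3, was at 17.9, 15.3 and 13.3 CPM in sham and at 11.5, 7.67 and 17.2 after ICH. The groups overlapped, with a log2 fold change of -0.38 and a 95% interval from -1.09 to 0.34 (adjusted p = 0.337, edgeR). Without ICH-Fabp4fl/fl replicate 3, the highest of the group for this gene and the library with its most neuron marker RNA, Slc22a8 was called lower (adjusted p = 0.0348, edgeR). In that fit 3856 of 14925 genes were called lower. OAT3 and OATP1C1 are known in the choroid plexus as well as in capillaries, and choroid plexus markers were lower after ICH in this comparison for 8 of 8 genes (median log2 fold change -5.41). Within the sham group the library with the most choroid plexus marker RNA, replicate 3, had the lowest Slc22a8 level and the highest Slco1c1 level. A part of the choroid plexus in either value was not tested.

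The same comparison was made in mice with the deletion, ICH-Fabp4CKO against Sham-Fabp4CKO. Here 5 of the 10 members were called higher by edgeR's quasi-likelihood test, Slc2a1, Slc16a1, Slc7a5, Slc38a5 and Abcg2, beside 24.5% of 14737 genes tested. When scaled to the endothelial markers, none of the 5 was called higher, and Slc2a1 and Slc7a5 had a negative sign. That scaling moved the median of all genes to -0.77, and 8 of the 10 members lay above the median of all genes with either scaling. For 6 members, these and Abcb1a, the ICH libraries lay above all sham libraries, as for 33.2% of genes. The median log2 fold change was 0.45, beside 0.01 over all genes. With a fold of at least 2 required, 3 were called, Slc16a1, Slc38a5 and Abcg2, beside 17.9% of genes.

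Of the called members, Slc38a5 changed most. It went from 2.13, 2.69 and 3.63 CPM in Sham-Fabp4CKO to 8.28, 5.92 and 8.58 in ICH-Fabp4CKO (log2 fold change 1.43, standard error 0.28, adjusted p = 0.0145, edgeR). Slc16a1 went from 48.8, 46.1 and 42.0 to 132, 84.5 and 106 (1.24, standard error 0.19, adjusted p = 0.00822), and Abcg2 from 12.95, 10.8 and 14.1 to 23.9, 22.8 and 34.1 (1.10, standard error 0.21, adjusted p = 0.0139). Smaller changes were measured for Slc2a1, the glucose carrier. It went from 108, 121 and 114 CPM to 221, 173 and 191 (0.78, standard error 0.14, adjusted p = 0.0122), and Slc7a5 from 50.6, 45.4 and 47.2 to 67.1, 70.2 and 62.4 (0.48, standard error 0.11, adjusted p = 0.0221). Both calls depended on the fit, since Slc2a1 was not called with all 12 libraries in 1 fit (adjusted p = 0.0567, edgeR, with 4 members and 27.6% of genes called higher) and Slc7a5 was not called with total counts alone (adjusted p = 0.0626, with 4 members and 22.1% of genes).

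For the other 5 members no call was made. Mfsd2a was at 20.1, 24.1 and 21.7 CPM in Sham-Fabp4CKO and at 25.0, 24.4 and 18.3 in ICH-Fabp4CKO, a log2 fold change of 0.04 with a 95% interval from -0.36 to 0.44, and its sign turned with total counts alone (-0.03) or without ICH-Fabp4CKO replicate 1 or 2 or Sham-Fabp4CKO replicate 1. Abcb1a was at 29.9, 27.1 and 29.8 and at 31.6, 36.7 and 48.01 (0.42, interval -0.004 to 0.85, adjusted p = 0.0974, edgeR). Slco1a4 was at 37.7, 34.6 and 33.2 and at 29.6, 56.2 and 40.8 (0.27, interval -0.31 to 0.84). The remaining organic anion carriers had negative values. Slco1c1 was at 60.1, 61.4 and 59.3 in sham and at 34.2, 70.1 and 35.9 after ICH (-0.36, interval -1.06 to 0.33), and Slc22a8 at 11.3, 12.4 and 10.1 and at 3.43, 9.86 and 4.54 (-0.92, interval -1.88 to 0.04, adjusted p = 0.106, edgeR). ICH-Fabp4CKO replicate 2 was the highest of its group for Slco1c1, Slco1a4 and Slc22a8, and it was the library with the most neuron and the least macrophage marker RNA of its group, whose part in these values was not tested. Without it 6 members were called higher, beside 34.7% of genes, and Slco1c1 and Slc22a8 were called lower, beside 32.7% of genes. Without Sham-Fabp4CKO replicate 2, 0 of the 10 were called higher, beside 5.12% of genes, with adjusted p-values of 0.0511 to 0.0975 for the 5 named above (edgeR). Without Sham-Fabp4CKO replicate 1 only Slc16a1 was called (adjusted p = 0.0494, beside 5.32% of genes higher), without replicate 3 only Slc38a5 (0.0499, beside 3.98%), and without ICH-Fabp4CKO replicate 1, the library with 1 Y-linked count, Slc38a5 (0.0618) and Slc7a5 (0.0823) were not called and 9.62% of genes were.

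**Figure D2:**
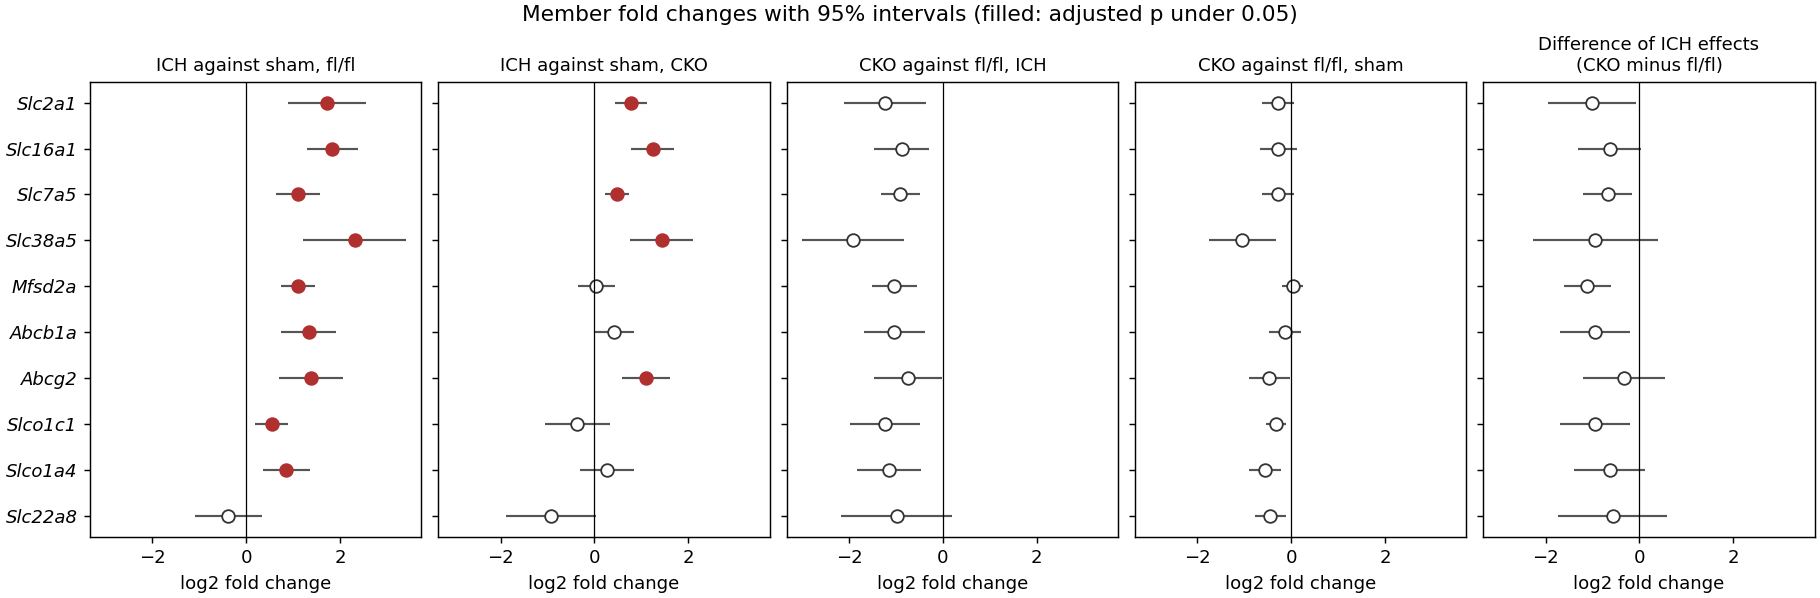
Log2 fold change (horizontal axis) of each member in the 4 comparisons and in the difference of the ICH effects, with 95% intervals from edgeR's quasi-likelihood fit. Filled points have an adjusted p under 0.05: 9 for ICH against sham in Fabp4fl/fl mice, 5 in Fabp4CKO mice and 0 elsewhere, with TMM scaling. Scaled to the endothelial markers, 8 and 7 of the 10 values in the ICH comparisons were negative, beside medians of -1.76 and -0.77 over all genes.

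To compare the genotypes after ICH, ICH-Fabp4CKO was set against ICH-Fabp4fl/fl. All 10 members had lower values in ICH-Fabp4CKO, by a median of -1.03 on the log2 scale beside 0.06 over all 14600 genes tested. Scaled to the endothelial markers, the sign turned for 9 of the 10, but that scaling moved the median of all genes to 1.22. All 10 members lay below the median of all genes with either scaling. None of the 10 was called by edgeR's quasi-likelihood test (adjusted p = 0.295 to 0.462), nor was any other gene (0.0% of genes), although 9 members and 1777 genes had an unadjusted p under 0.05. Of the members 8 had all 3 ICH-Fabp4CKO libraries below all 3 ICH-Fabp4fl/fl libraries, as had 11.5% of genes.

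Other tests made calls in this comparison. DESeq2 called 8 members lower (2.21% of genes), all but Abcg2 and Slc22a8. With all 12 libraries in 1 quasi-likelihood fit, 6 were called lower (1.38% of genes): Mfsd2a, Abcb1a, Slco1c1, Slco1a4, Slc7a5 and Slc38a5. The exact test of edgeR called 5 (0.932% of genes), those without Abcb1a. Mfsd2a, with an adjusted p of 0.00111, 0.0181 and 0.0111 in these 3 fits, was called by each. This comparison shares the ICH-Fabp4fl/fl libraries with that against sham above.

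Slc38a5 had the largest difference, with 8.28, 5.92 and 8.58 CPM in ICH-Fabp4CKO against 49.8, 26.9 and 13.8 in ICH-Fabp4fl/fl (log2 fold change -1.92, 95% interval -3.01 to -0.83). Slc2a1 followed with -1.23 (interval -2.10 to -0.37), Slco1c1 with -1.23 (-1.97 to -0.48), Slco1a4 with -1.15 (-1.82 to -0.47), Abcb1a with -1.03 (-1.69 to -0.38) and Mfsd2a with -1.03 (-1.50 to -0.56). The ICH-Fabp4CKO levels of Mfsd2a, at 25.0, 24.4 and 18.3 CPM, were close to those of both sham groups. The values of Slc7a5 (-0.91, interval -1.33 to -0.49) and Slc16a1 (-0.87, interval -1.46 to -0.29) were smaller. Abcg2 (-0.74, interval -1.46 to -0.02) and Slc22a8 (-0.99, interval -2.16 to 0.19) were the 2 members whose ICH groups overlapped. Single libraries moved 3 of these values by more than 1.5 times. Without ICH-Fabp4fl/fl replicate 1, Slc2a1 had -0.80 and Abcg2 -0.43, and Slc22a8 had -0.64 without ICH-Fabp4fl/fl replicate 3 and -1.56 without ICH-Fabp4CKO replicate 2.

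Other brain cell markers moved with the transporters between the ICH groups. The 15 endothelial markers were all lower in ICH-Fabp4CKO with TMM scaling (median log2 fold change -1.26), the 8 oligodendrocyte markers also (-1.19), and 0 of each list were called. The summed endothelial markers were at 967.6 to 2372 CPM in ICH-Fabp4fl/fl and 500.1 to 756 in ICH-Fabp4CKO, and the summed oligodendrocyte markers at 18940 to 29240 and 7349 to 11740. By contrast, monocyte and macrophage markers, at 1005 to 2707 and 1264 to 10780, and neutrophil markers, at 37.9 to 68.4 and 68.9 to 265, had their highest values in ICH-Fabp4CKO, with 0 of each list called. Whether the cell makeup of the slices took part in the lower transporter levels was not tested.

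Between the sham-operated groups, Sham-Fabp4CKO against Sham-Fabp4fl/fl, 0 of the 10 members were called by edgeR's quasi-likelihood test, beside 0.111% of 14395 genes. An unadjusted p under 0.05 was found for 5 members and for 1472 of the 14395 genes. The log2 fold changes ran from -1.04 for Slc38a5 to 0.035 for Mfsd2a, with a median of -0.30. Slc38a5, Slco1c1, Slco1a4 and Slc22a8 were lower in all 3 Sham-Fabp4CKO libraries than in any Sham-Fabp4fl/fl library, as were 8.86% of genes. Choroid plexus markers were called lower for 4 of 8 genes here (median -4.07), and their part in the Slc22a8 and Slco1c1 values was not tested. Sham-Fabp4fl/fl replicate 3, which had the most choroid plexus marker RNA, was the lowest of its group for 8 of the 10 members. This library also had 8620 CPM of summed oligodendrocyte markers against 14440 and 15150 in replicates 1 and 2, and 128.5 CPM of Gfap against 398.4 and 237.6. The part of these differences was not tested. Without replicate 3, 7 members were called lower (9.1% of genes), with Slco1a4 at -0.70 (adjusted p = 0.00230) and Slc2a1 at -0.43 (adjusted p = 0.00790), whereas DESeq2 and edgeR's exact test called 0 members on all libraries.

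The ICH effects of the genotypes were then compared by the interaction of ICH and genotype over all 12 libraries, which share the values given above. The Fabp4CKO effect minus the Fabp4fl/fl effect was negative for all 10 members, with a median of -0.81 on the log2 scale (for Slc22a8, negative in both genotypes, a larger fall in Fabp4CKO mice), and the sign turned for 9 when scaled to the endothelial markers and for Abcg2 without ICH-Fabp4fl/fl replicate 1 (0.03). The endothelial scaling moved the median of all genes from 0.03 to 1.06, and all 10 members lay below the median with either scaling. No member passed the adjusted threshold, as 0.0199% of 15089 genes did. An unadjusted p under 0.05 was found for 5 members and for 1500 of the 15089 genes. Mfsd2a came closest, at -1.11 (95% interval -1.62 to -0.61, adjusted p = 0.180 by edgeR's quasi-likelihood fit over all genes). DESeq2 called Mfsd2a (adjusted p = 0.00277) as its only member, beside 0.55% of genes called lower. Without ICH-Fabp4CKO replicate 2, Mfsd2a (adjusted p = 0.0396) and Slco1c1 (0.0193) were called, beside 0.725% of genes. Abcg2 had the smallest difference, -0.33 with an interval from -1.20 to 0.54.

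Most members ran with the endothelial markers over the 12 libraries, with the differences between the 4 groups included. The 15 markers, among them Cldn5 of the tight junction, Cdh5 and Pecam1 (2.39 in Fabp4fl/fl and 1.40 in Fabp4CKO mice), were called higher after ICH in Fabp4fl/fl mice for 15 of 15 genes (median log2 fold change 2.16) and in Fabp4CKO mice for 8 of 15 (0.97). The shares over all genes were 26.2% and 24.5%. Cldn5 was at 24.5 ± 2.14 CPM in Sham-Fabp4fl/fl, 138 ± 60.9 in ICH-Fabp4fl/fl, 27.9 ± 3.08 in Sham-Fabp4CKO and 29.6 ± 2.44 in ICH-Fabp4CKO (SD, n = 3 each). Over the 12 libraries, which share tissue and scaling, the correlation of a member with the mean log2 level of the markers was 0.987 for Slc2a1, 0.957 for Slc38a5 and 0.944 for Abcb1a, and lowest for Slco1a4 (0.776), Slco1c1 (0.5) and Slc22a8 (-0.205).

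The level of each member was therefore also taken relative to the endothelial markers, as its log2 CPM minus the mean log2 CPM of the 15. This is a description with no test. The relative level of Slc2a1 overlapped between the groups in all 4 comparisons, at 2.71 ± 0.23 in Sham-Fabp4fl/fl, 2.61 ± 0.08 in Sham-Fabp4CKO, 2.50 ± 0.11 in ICH-Fabp4fl/fl and 2.58 ± 0.11 in ICH-Fabp4CKO (log2, SD, n = 3). Slc16a1 stood at 1.37 ± 0.30, 1.29 ± 0.08, 1.36 ± 0.74 and 1.71 ± 0.06 in the same order.

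Slc22a8, Slco1c1 and Mfsd2a had lower relative levels in both ICH groups. Slc22a8 went from -0.45 ± 0.13 and -0.72 ± 0.09 in the sham groups to -2.75 ± 1.02 in ICH-Fabp4fl/fl and -2.57 ± 1.04 in ICH-Fabp4CKO. Slco1c1 went from 1.84 ± 0.23 and 1.69 ± 0.03 to 0.53 ± 0.43 and 0.45 ± 0.84, and Mfsd2a from 0.04 ± 0.09 and 0.23 ± 0.12 to -0.72 ± 0.39 and -0.53 ± 0.38. For each of these 3 genes the ICH libraries lay below the sham libraries in both genotypes. Slco1a4 went from 1.28 ± 0.26 to 0.29 ± 0.36 in Fabp4fl/fl mice, without overlap, and from 0.91 ± 0.08 to 0.33 ± 0.73 in Fabp4CKO mice, where the groups overlapped. In Fabp4fl/fl mice 7 of the 10 members were below sham without overlap, beside 84.3% of all genes, and in Fabp4CKO mice 3, beside 65.2%. In Fabp4fl/fl mice the members had a median difference of -0.64, or -1.11 when Cldn5, Pecam1 and Cdh5 alone were the markers. Between the ICH groups the median difference was 0.19, and it ran from -0.06 to 0.35 when single libraries were left out. Slc38a5 was lower (-0.53) and Abcg2 higher (0.51) in every ICH-Fabp4CKO library than in any ICH-Fabp4fl/fl library on this scale, as were 0.199% and 67.3% of all genes.

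**Figure D3:**
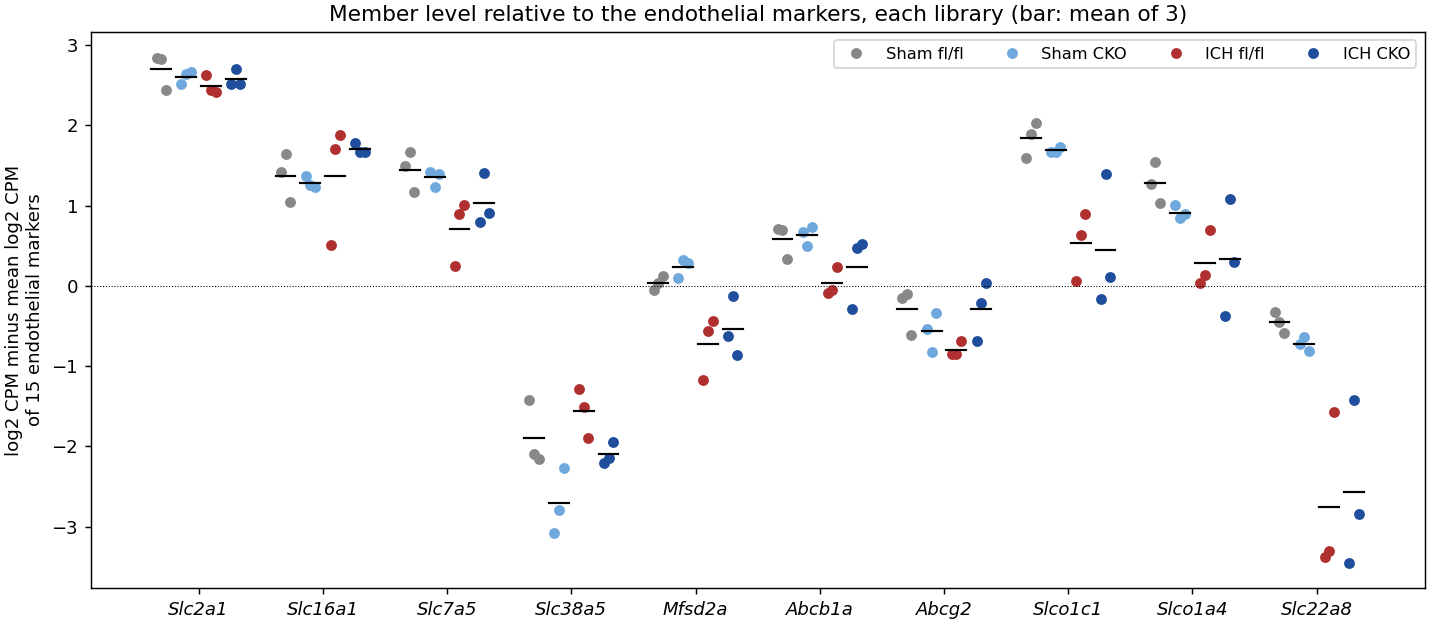
Log2 CPM of each member minus the mean log2 CPM of the 15 endothelial markers (vertical axis) in each library, with a bar at the mean of 3. Slc2a1 has means of 2.50 to 2.71 in all 4 groups, while Slco1c1, Mfsd2a and Slc22a8 have lower values in both ICH groups than in the sham groups.

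A fit with libraries scaled to the endothelial markers shifted the median of all genes by -1.78 on the log2 scale for ICH against sham in Fabp4fl/fl mice, by -0.78 in Fabp4CKO mice and by 1.16 between the ICH groups. In Fabp4fl/fl mice it called 843 genes higher and 11916 lower, in place of 3862 and 2845 with TMM. Slco1c1 (-1.29, adjusted p = 0.00985, edgeR), Slco1a4 (-0.98, adjusted p = 0.0296) and Slc22a8 (-2.06, adjusted p = 0.00124) were called lower, beside 81.0% of genes. In Fabp4CKO mice it called 1826 genes higher and 8086 lower, in place of 3605 and 1643, with Slco1c1 (-1.08, adjusted p = 0.0427), Mfsd2a (-0.74, adjusted p = 0.0269) and Slc22a8 (-1.61, adjusted p = 0.0223) among the 54.9% of genes called lower. Between the ICH groups it called 6289 genes higher and 6 lower, in place of 0 and 0, and for the difference of the ICH effects 2891 and 6, in place of 2 and 1, with 0 members called in either.

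**Figure D4:**
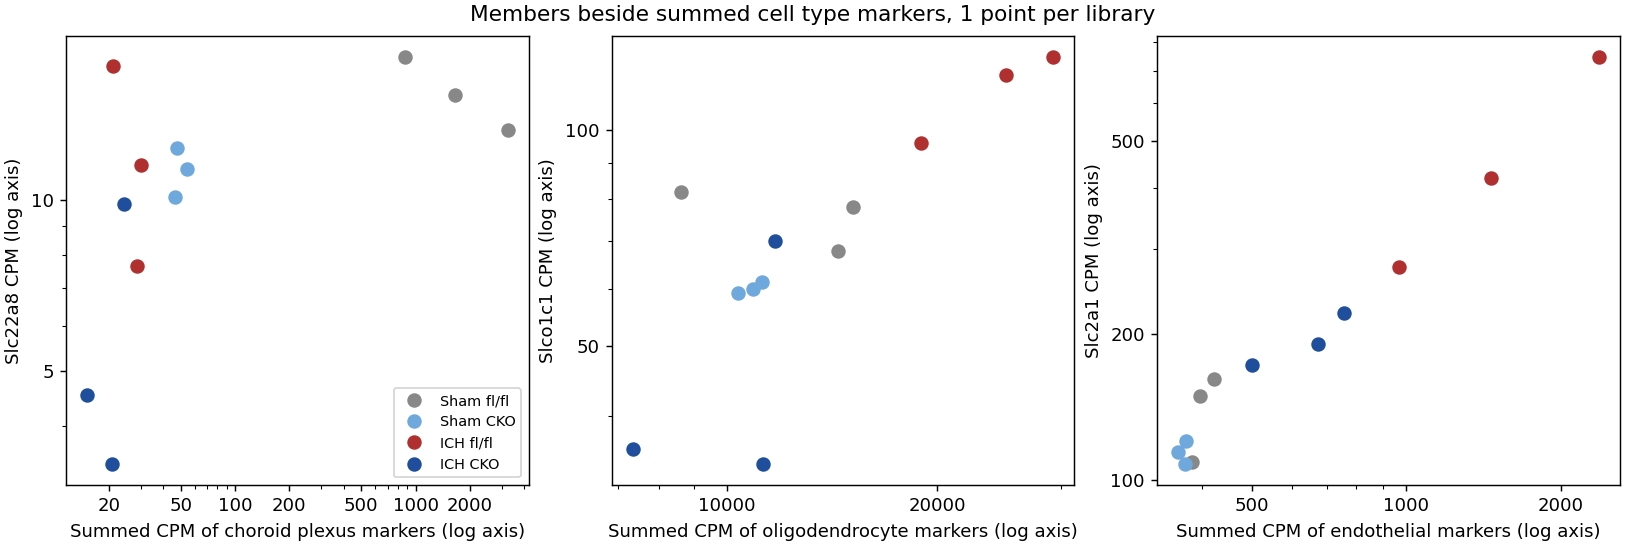
CPM of Slc22a8, Slco1c1 and Slc2a1 (vertical, log axes) against the summed CPM of choroid plexus, oligodendrocyte and endothelial markers (horizontal, log axes), 1 point per library. Slc2a1 runs with the endothelial markers, the 3 Sham-Fabp4fl/fl libraries stand alone at 872 to 3236 CPM of choroid plexus markers, and the ICH-Fabp4fl/fl libraries hold the highest Slco1c1 and oligodendrocyte marker levels.

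The partners and relatives of the members were read in the same fits. Slc3a2, the heavy chain that pairs with Slc7a5, rose after ICH in both genotypes with TMM scaling (log2 fold change 1.18, adjusted p = 0.00399 in Fabp4fl/fl, and 1.16, adjusted p = 0.0139 in Fabp4CKO mice, edgeR). Bsg, the chaperone of monocarboxylate carriers at the membrane, was called in Fabp4fl/fl mice (0.63, adjusted p = 0.0294) and had 0.09 in Fabp4CKO mice (adjusted p = 0.660). Over all genes tested, 26.2% were called higher in Fabp4fl/fl mice and 24.5% in Fabp4CKO mice. Of 20 other endothelial transporters and receptors, 12 were called higher and 0 lower in Fabp4fl/fl mice (median log2 fold change 0.75), and 10 higher and 1 lower in Fabp4CKO mice (0.52). The 3 with the smallest p were Slc40a1, the iron exporter ferroportin (2.58), Slco2b1, an organic anion carrier (2.03), and Abcb1b (2.65). Macrophages and microglia express the iron exporter as well, and their markers rose in the same comparison, as given below. In the ICH-Fabp4CKO libraries Slco2b1 was at 122, 86.9 and 148 CPM and Abcb1b at 24.3, 10.8 and 35.3. Both had the order of the summed monocyte and macrophage markers there (6213, 1264 and 10780). The part of these cells in the values of the 3 genes was not tested.

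Over all genes tested, 26.2% were called higher and 2845 of 14719 lower in Fabp4fl/fl mice. In Fabp4CKO mice 24.5% were called higher and 1643 of 14737 lower. Of 32 family relatives of the members, 29 were tested, 8 were called higher and 4 lower in Fabp4fl/fl mice, with a median of 0.26, and in Fabp4CKO mice 12 higher and 3 lower (0.25). The calls in Fabp4fl/fl mice were thus near the share over all genes. Slc16a3, the lactate exporter MCT4, rose by 4.15 on the log2 scale (adjusted p = 0.000913, edgeR), Slc2a4, the insulin-regulated glucose carrier, by 2.34 and Slc7a7, a cationic amino acid carrier, by 2.90. The called genes that fell were Slc2a12 (-2.03), the neuronal glucose carrier Slc2a3 (-1.07), the glutamine carrier Slc38a1 (-1.42) and Abcg4 (-1.35). Slco1a5, the close copy of Slco1a4, had 8 to 20 counts in Sham-Fabp4fl/fl and 19 to 81 in ICH-Fabp4fl/fl and was not called in Fabp4fl/fl mice (1.84, adjusted p = 0.0649, edgeR). It was called higher in Fabp4CKO mice (1.53, adjusted p = 0.0369, edgeR), on only 5, 4 and 8 counts in Sham-Fabp4CKO and 10, 13 and 17 in ICH-Fabp4CKO. Reads may have been shared between the copies.

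**Figure D5:**
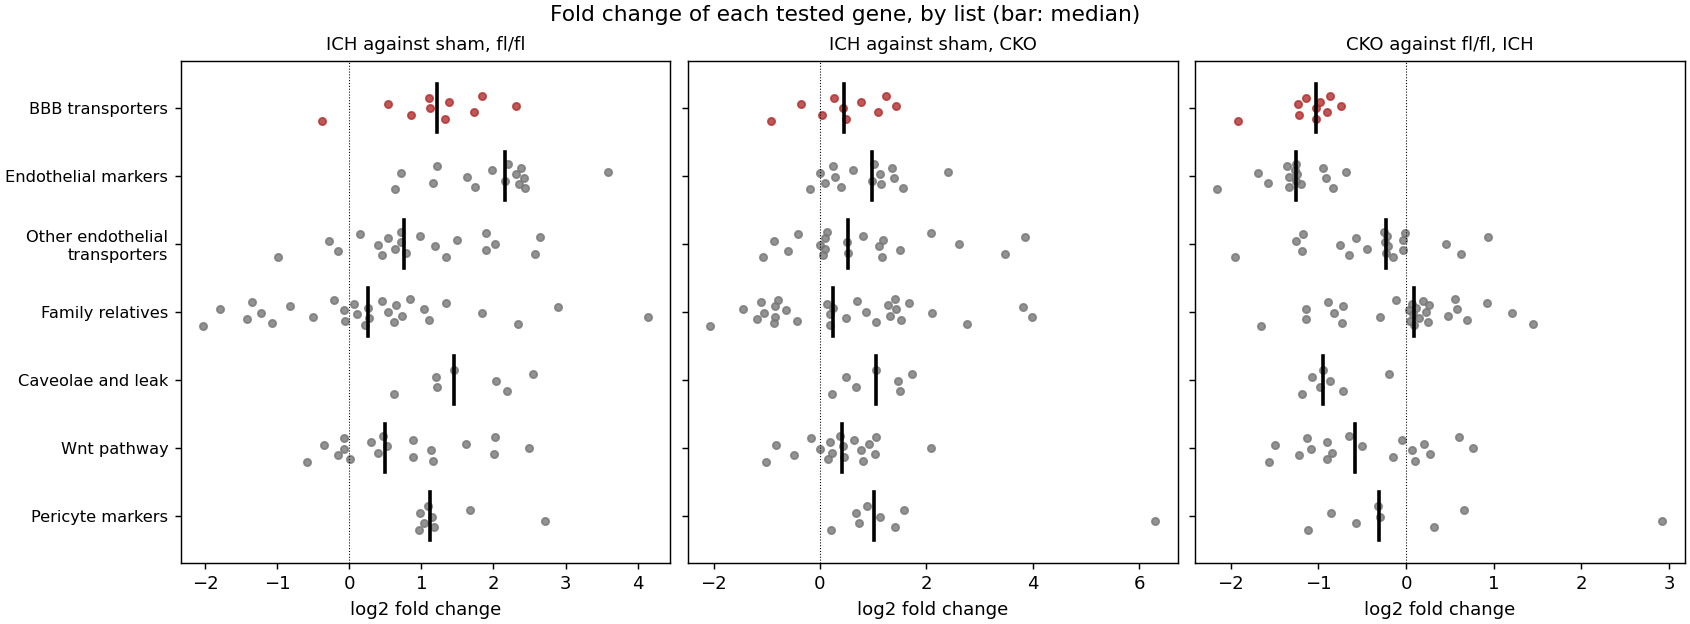
Log2 fold change (horizontal axis) of each tested gene in 7 lists for ICH against sham in each genotype and for the genotypes after ICH, with a bar at the median and TMM scaling. The transporter medians are 1.22, 0.45 and -1.03, beside 2.16, 0.97 and -1.26 for the endothelial markers.

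Genes linked to barrier leak and to barrier identity were read beside the calls over all genes, of which 45.6% passed the test in either direction in Fabp4fl/fl mice and 35.6% in Fabp4CKO mice. In the higher direction alone these shares were 26.2% and 24.5%. The 15 endothelial markers had medians of 2.16 in Fabp4fl/fl and 0.97 in Fabp4CKO mice with the same TMM scaling. The part of endothelial RNA as a whole in the values of this paragraph was not tested. Of 7 genes of caveolae and endothelial leak, 6 were called higher in Fabp4fl/fl mice (median 1.45) and 5 in Fabp4CKO mice (1.06), and 0 lower. They included Cav1 (2.18, adjusted p = 0.000946, edgeR), Ehd2 (2.55) and Cav2 (1.45) of the caveolar coat, and Plvap, a marker of leaky vessels, at 1.22 (adjusted p = 0.00217) in Fabp4fl/fl and 0.69 (adjusted p = 0.0475) in Fabp4CKO mice. Of 18 genes of the Wnt pathway, which maintains the barrier, 8 were called higher and 1 lower in Fabp4fl/fl mice (median 0.49). Of all 14719 genes tested there, 26.2% were called higher and 2845 genes lower. Apcdd1 (2.50), Foxf2 (2.02) and Foxq1 (2.01), which are high in brain endothelium, rose, the general target Axin2 fell by 0.59, and the ligand Wnt7a had 0.31 (adjusted p = 0.203). In Fabp4CKO mice 6 were called higher and 1 lower (median 0.41), and Foxq1 had 0.19 (adjusted p = 0.378, edgeR).

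Gene sets of stress responses were mixed. Of 15 hypoxia response genes, 5 were called higher and 0 lower in each genotype (median 0.37 in Fabp4fl/fl and 0.47 in Fabp4CKO mice). Over all genes, 26.2% were called higher and 2845 of 14719 lower in Fabp4fl/fl mice. In Fabp4CKO mice 24.5% were called higher and 1643 of 14737 lower. The hypoxia calls were thus not far from the share over all genes. In Fabp4fl/fl mice Adm, a vasodilator peptide, rose by 3.15, the oxygen sensor Egln3 by 2.65 and Ldha, lactate dehydrogenase, by 1.31, whereas the growth factor Vegfa had -0.05 (adjusted p = 0.837, edgeR). Of 11 amino acid response genes, 6 were called higher and 2 lower in Fabp4fl/fl mice (median 0.48), and 6 and 0 in Fabp4CKO mice (0.59). Nupr1 (3.98), Cebpb (3.21) and the serine synthesis enzyme Psat1 (0.82) rose, Asns (-1.25), asparagine synthetase, and Chac1 (-0.84) fell, and the factor Atf4 had 0.21 (adjusted p = 0.448).

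Markers of the cell types in the slice set the frame for these values. Over all genes, 26.2% were called higher and 2845 of 14719 lower after ICH in Fabp4fl/fl mice, and 24.5% higher in Fabp4CKO mice. For ICH against sham in Fabp4fl/fl mice, 8 of 8 pericyte markers were called higher (median 1.12), 3 of 8 astrocyte markers (0.00), 3 of 8 oligodendrocyte markers (0.77), 7 of 8 microglia markers (1.76) and 8 of 8 monocyte and macrophage markers (5.69). Higher calls were also made for 4 of 5 neutrophil markers tested (2.73), 5 of 7 T cell markers (2.87), 3 of 5 erythroid genes (1.38) and 4 of 8 meningeal fibroblast markers (1.198), while 1 of the 8, Igf2, was called lower. Neuron markers were called lower for 4 of 8 genes (-0.88). The first gene of each list had log2 fold changes of 1.03 (Pdgfrb), 1.85 (Aqp4), 0.90 (Mbp, not called), 1.82 (Tmem119), 5.45 (Lyz2), 4.46 (S100a8), 3.66 (Cd3e), 1.62 (Hba-a1), 2.17 (Dcn) and -1.15 (Rbfox3). In Fabp4CKO mice the oligodendrocyte list had 0 calls (-0.16), unlike the pericyte list with 7 of 8 higher (1.01) and the microglia list with 7 of 8 (2.23). These lists were read with TMM scaling, and their part in the transporter levels was not tested.

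The genes whose log2 CPM ran most like each member over the 12 libraries are given as a description. For Slc2a1 they were Erg, a transcription factor of endothelial cells (Pearson's r = 0.990), Pdlim1 (0.988) and D8Ertd738e (0.986), and for Abcb1a Ptprb (0.981), the endothelial phosphatase VE-PTP, Slc48a1 (0.977) and Pdlim2 (0.971). Abcg2 ran with the pericyte marker Rgs5 (0.986), Tbx2 (0.980) and Brca2 (0.978). Mfsd2a differed in that its nearest gene was Cldn11 (0.980), a tight junction protein of oligodendrocytes, before Carhsp1 and Metrn (0.968 each). Slc38a5 ran with Mrps24 (0.984), Heg1 (0.983) and Mrpl13 (0.982), Slc16a1 with Ifi44 (0.990), Gbp5 (0.985) and Trf (0.983), and Slc7a5 with Adamtsl4 (0.981), Trp53inp2 (0.978) and Dbndd2 (0.976). The organic anion carriers had other neighbours. These were Wfdc1 (0.945), Hsbp1 (0.941) and Gstt1 (0.940) for Slco1c1, Ccdc141 (0.983), Itm2a (0.958) and Zfp219 (0.946) for Slco1a4, and Ndufs3 (0.961), Lad1 (0.956) and Zfp112 (0.947) for Slc22a8.

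Among the members themselves, Slc2a1 and Slc38a5 had the highest correlation over the libraries (0.970). With the group means removed it was 0.893, and that of Abcb1a with Abcg2 was 0.962. Other pairs fell, Slc2a1 with Slc16a1 from 0.885 to 0.191 and Mfsd2a with Abcb1a from 0.854 to 0.072. Slco1c1 ran less with Slc2a1 (0.517, and 0.034 within groups) than with Slco1a4 (0.835, and 0.651 within groups). Slc22a8 was the member least like the others, from -0.317 with Slc16a1 to 0.637 with Slco1c1. Members measured in the same 12 libraries share depth and cell makeup, and these values carry no test.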

How the data were processed

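RNA from 12 mouse brain samples was sequenced after poly(A) selection on an Illumina NovaSeq. The authors deposited 1 table with an estimated count per gene and library, neither scaled for depth nor for length, and the submitters' processing notes name Bowtie2 2.2.8, HISAT2, StringTie 1.3.1 and DESeq2. The genome build is not given in the sources used here. Between 7.36% and 8.69% of the values per library were not whole, and all were rounded. The deposited gene annotation was used for functional terms.

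Each comparison was fitted on its own 6 libraries with edgeR 4.0.16 in R 4.3.3 (TMM scaling, filterByExpr at 10 counts per library and 15 in total, quasi-likelihood F-test, Benjamini-Hochberg adjustment over all genes, threshold 0.05), and the difference of the ICH effects on all 12. Every gene list is described by its counts and median. The 10 members and the lists were chosen with earlier results of these data known. All members were named, and from each other list at most the 3 genes with the smallest p per direction in ICH-Fabp4fl/fl against Sham-Fabp4fl/fl, set partners and paralogs, and the first gene of each marker list. The test was checked on simulated data. Alternatives were DESeq2 1.42.0, the exact test, other scalings and filters, a replicate block, 1 fit of all libraries, a fold of at least 2 and leaving out each library. No libraries agreed within sampling noise. Each group held 3 mice, and p-values measure the spread between mice. Exon lengths came from GENCODE and promoter sequences from RefSeq (GRCm38.p6).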

Additional observations from a re-analysis of the deposited data

Results flagged for a closer look

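Both results given here are choroid plexus markers whose ICH effect differed between the genotypes by the interaction test of edgeR over all 12 libraries. Ttr, the thyroxine carrier protein transthyretin, had 16255, 27089 and 56723 counts in the Sham-Fabp4fl/fl libraries and 122 to 425 in the other 9, and the difference of the ICH effects was 5.73 on the log2 scale. Folr1, a folate receptor, had 107, 172 and 368 counts in Sham-Fabp4fl/fl, 29, 29 and 33 in Sham-Fabp4CKO, 1, 1 and 0 in ICH-Fabp4fl/fl and 12, 21 and 17 in ICH-Fabp4CKO. Its fitted difference of 7.33 depends on the prior count, because ICH-Fabp4fl/fl was close to 0. With 3 libraries in a group, no single library was tested as an outlier.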

How the results depend on the processing

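Other filters and relative log expression scaling left every member's direction and call as they were. Scaled to the endothelial markers, 0 members were called higher and 3 lower for ICH against sham in each genotype, 0 were called in the other comparisons, and directions turned. Those for ICH against sham in Fabp4fl/fl mice were Slc2a1 -0.23, Mfsd2a -0.73, Abcb1a -0.55, Abcg2 -0.53, Slco1c1 -1.29, Slco1a4 -0.98 and Slc7a5 -0.71. In Fabp4CKO mice they were Slc2a1 -0.03, Mfsd2a -0.74, Abcb1a -0.36, Slco1a4 -0.46 and Slc7a5 -0.30. Between the ICH groups they were Slc2a1 0.086, Mfsd2a 0.19, Abcb1a 0.24, Abcg2 0.54, Slco1c1 0.05, Slco1a4 0.14, Slc7a5 0.31, Slc16a1 0.23 and Slc22a8 0.17, and between the sham groups Abcb1a 0.045. For the difference of the ICH effects they were Slc2a1 0.20, Abcb1a 0.20, Abcg2 0.82, Slco1c1 0.21, Slco1a4 0.52, Slc7a5 0.41, Slc16a1 0.33, Slc38a5 0.28 and Slc22a8 0.45. The shift of the scaling itself moves all genes alike. Mfsd2a in Fabp4CKO mice, at 0.04, turned to -0.031 with total counts and to -0.051, -0.020 and -0.021 without ICH-Fabp4CKO replicate 1, ICH-Fabp4CKO replicate 2 and Sham-Fabp4CKO replicate 1. Between the sham groups Mfsd2a ranged from -0.033 without Sham-Fabp4CKO replicate 2 to 0.084 without replicate 1, and the Abcg2 difference of effects was 0.032 without ICH-Fabp4fl/fl replicate 1.

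With a fold of at least 2 required, 7 members were called in Fabp4fl/fl mice and 3 in Fabp4CKO mice. Between the ICH groups DESeq2 called 8 lower, 1 fit of all libraries 6 and the exact test 5, and DESeq2 called 1 for the difference of effects; the cause was not tested. The median relative level moved from -0.64 to -1.11 with Cldn5, Pecam1 and Cdh5 as the markers. Leaving out single libraries gave 7 to 9 members higher and 0 to 1 lower in Fabp4fl/fl mice, 0 to 6 and 0 to 2 in Fabp4CKO mice, 0 to 7 lower between the sham groups, 0 to 2 lower for the difference of effects, and 0 between the ICH groups. Of all genes, these fits called 2633 to 4309 higher and 1465 to 3856 lower in Fabp4fl/fl mice, and 594 to 5202 and 35 to 4897 in Fabp4CKO mice. They called 0 to 1331 genes lower between the sham groups, 0 to 111 lower for the difference of effects, and 0 to 2 higher and 0 lower between the ICH groups. Over all genes, DESeq2 called 4154 higher and 3541 lower in Fabp4CKO mice (3605 and 1643 by the quasi-likelihood test), 11 and 139 between the sham groups (0 and 16; exact test 9 and 142), 255 and 323 between the ICH groups (0 and 0; exact test 129 and 136) and 183 and 83 for the difference of effects (2 and 1).

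Same-numbered samples did not deviate together in every comparison (mean correlation 0.115, -0.006, -0.144 and -0.067 for ICH against sham in Fabp4fl/fl and in Fabp4CKO mice, the ICH groups and the sham groups). For other pairs the means were -0.057, 0.003, 0.079 and 0.035. In Fabp4fl/fl mice all same-numbered pairs were positive, with a lowest value of 0.023. The replicate numbers were not taken to pair mice. With a replicate block 9 members were called higher in Fabp4fl/fl mice, 4 in Fabp4CKO mice (Slc7a5 at an adjusted p of 0.0589, edgeR) and 0 elsewhere, and over all genes 3967 and 3295, 2577 and 1104, 0 and 0, 0 and 11, and 1 and 0. Depth limited Slc38a5 most, with 46 to 79 counts per library in Sham-Fabp4CKO.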
